A study of Homo sapiens with 6 samples.

Results

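Among the genes of C4-2 prostate cancer cells that were nearly silent in both control libraries and low after EZH2 knockdown, 64 stood at 1 FPKM or more with astemizole. FPKM counts sequenced fragments scaled by transcript length and by library size. The 64 were chosen by their values in 4 of the 5 columns, from 28503 names: vehicle and scramble shRNA both under 0.5 FPKM, the EZH2 knockdown under 1 FPKM and astemizole at 1 FPKM or more, with short noncoding RNAs, intergenic, antisense and accession-like names, potassium channel and HOX genes and 6 further genes left out. The rule could take 21441 names, of which 8899 were silent in the 2 controls and under 1 FPKM in the knockdown, so that 0.719% of the silent names passed. Values in those 4 columns are given below as a description, with no test. GSK126 is the column that the rule did not use, and 6 of the 64 genes reached 1 FPKM there too. The genes are therefore described as present with astemizole and silent in the controls, and not as present with astemizole alone.

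Polyadenylated RNA was sequenced from C4-2, an established line derived from LNCaP prostate cancer cells, at passages 10 to 15. Cells received astemizole, GSK126, lentivirus with 1 of 2 EZH2 shRNAs, vehicle as the control of the 2 compounds, or lentivirus with a scramble shRNA as the control of the knockdown. All cells shared the line and its medium, while doses and durations were not stated in the sources used here. The other conditions had 1 library each, and the 2 EZH2 shRNA libraries appear as 1 column set by the authors, so replicates cannot check any of these differences, and no p-value is given.

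EZH2 is the methyltransferase of Polycomb repressive complex 2, which keeps genes silent by methylating lysine 27 of histone H3. Many silent genes of a differentiated cell are held by this mark, while others are silent because the activating factors of their promoters are missing. GSK126 blocks the catalytic site of EZH2. Astemizole is an antihistamine that is reported to separate EZH2 from its partner EED, and it is also known as a cationic amphiphilic drug that collects in lysosomes.

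EZH2 itself stood at 9.48 FPKM with astemizole, 17.5 with GSK126 and 3.35 in the knockdown column, against 26.5 with vehicle and 24.6 with scramble shRNA. EED stood at 7.71, 10.6 and 8.16 FPKM with astemizole, GSK126 and knockdown, against 14.9 with vehicle and 13.6 with scramble shRNA. SUZ12, the third core subunit, stood at 18.1, 24.0 and 13.4 FPKM in the treated columns in the same order, against 28.4 with vehicle and 28.6 with scramble shRNA. The knockdown column was the lowest for EZH2 and SUZ12 and the astemizole column for EED. The 8 prostate luminal markers, the secreted protease gene KLK3 among them, were above 0 in every column. Their sum was lowest with astemizole, at 3184 FPKM, then 3786 with knockdown and 5508 with GSK126. It was 4859 with vehicle and 5043 with scramble shRNA. KLK3 alone stood at 1230 FPKM with astemizole, 3112 with GSK126 and 1635 with knockdown, against 2675 with vehicle and 2796 with scramble shRNA. Markers of liver cells, 9 genes, summed to 184 FPKM with GSK126, 5.64 with astemizole and 3.25 with knockdown, against 21.7 with vehicle and 2.04 with scramble shRNA, and these sums stand beside the GSK126 results below.

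Depth was read from the spacing of low values. In names with a single annotated transcript, values multiplied by transcript length piled up at 0.0460 FPKM per fragment and kilobase with astemizole, 0.0413 with GSK126, 0.0426 with vehicle and 0.0379 with scramble shRNA. A gene at 1 FPKM with astemizole thus rests on about 21.7 fragments per kilobase. For the 60 genes with an annotated length, the fragments behind the astemizole value had a median of 38 when the shortest annotated transcript of each gene was used, coding ones where a gene has any, and 93.5 with the longest. Most of these values are low, and the number of fragments is approximate, because the sources used here do not give the authors' transcript models.

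The 64 genes had a median of 1.46 FPKM with astemizole, and 33 of them lay between 1 and 1.5 FPKM. 21 stood at 2 FPKM or more and 3 at 5 FPKM or more. Their medians in the other columns were 0.486 FPKM with GSK126 and 0.235 with knockdown, against 0.273 with vehicle and 0.222 with scramble shRNA. The astemizole value was at least 2 times the highest of the other 4 columns for 49 genes and at least 5 times for 17. Both counts include PRSS3P2 and TMEM185A, which were listed at 0 in those 4 columns and have no fold. For the remaining 15 it was less than 2 times that highest value, so that these genes passed a threshold with little distance between columns. On the scale of log2 (FPKM + 1), which understates ratios of low genes, 35 of the 64 were at least 2-fold above vehicle, beside 3.39% of the 12147 names that reached 1 FPKM in any column; the rule used this contrast, and nothing is read from it. By the symbol tables, 55 of the 64 code for proteins, 3 are long noncoding RNAs and PRSS3P2 is a transcribed pseudogene, while 4 names had no match.

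**Figure D1:**
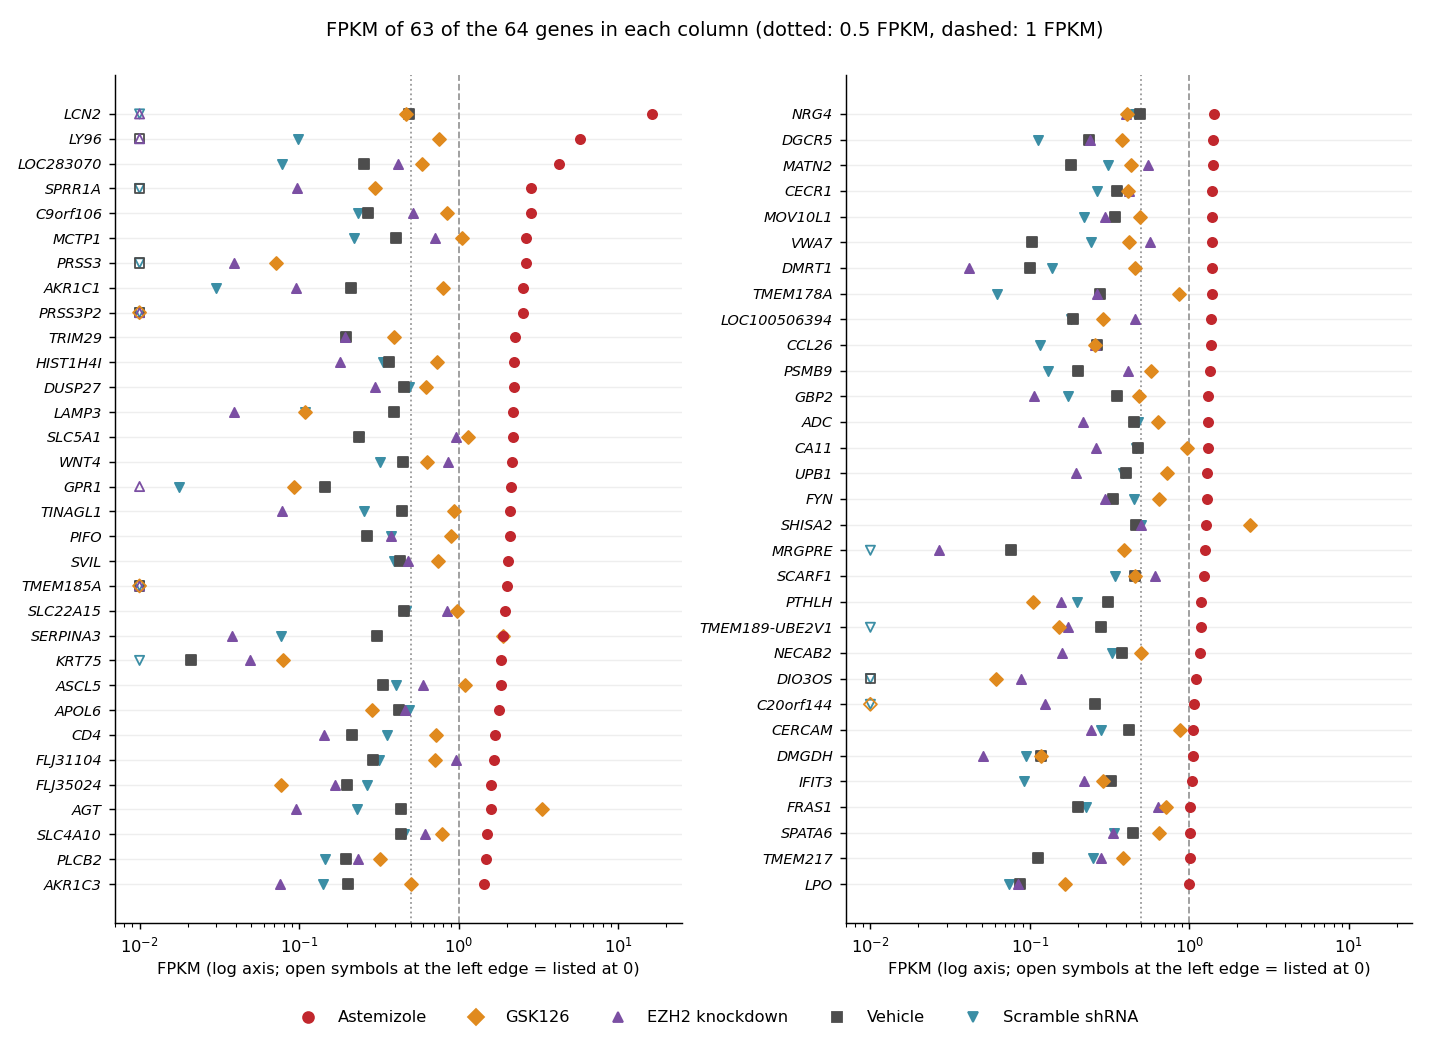
FPKM on a log axis for 63 of the 64 genes, ordered by their astemizole value, with 1 symbol per column of the table and open symbols for values listed at 0. The astemizole symbols lie at or right of the dashed line at 1 FPKM, LCN2 farthest at 16.4 FPKM. GSK126 is the highest of the other 4 columns for 44 of the 64 genes, counting 2 genes listed at 0 in all 4. The rule capped the controls and the knockdown but not GSK126, so nothing is read from this count.

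The genes were sorted by hand into functional groups after their values were seen, and 13 of the 64 were placed with innate defence, inflammation and interferon responses. The hand-written innate defence and interferon lists hold 1 member each, LCN2 and IFIT3, so the group is an ordering of the text and not a result. LCN2, which encodes the iron-trafficking lipocalin 2, was the highest of all 64 genes at 16.4 FPKM with astemizole, 0.470 with GSK126 and 0 with knockdown, against 0.492 with vehicle and 0 with scramble shRNA. These values correspond to about 225 to 302 fragments with astemizole and 7 to 10 each with GSK126 and vehicle. LY96 encodes MD-2, the protein that lets Toll-like receptor 4 recognise lipopolysaccharide, and stood at 5.80 FPKM with astemizole, 0.754 with GSK126 and 0 with knockdown, against 0 with vehicle and 0.0978 with scramble shRNA. The gene of that receptor, TLR4, was listed at 0 with astemizole and at 0.00706 FPKM with GSK126. LAMP3, a lysosomal membrane protein gene known from mature dendritic cells, stood at 2.20 FPKM with astemizole, 0.108 with GSK126 and 0.0390 with knockdown, against 0.393 with vehicle and 0.109 with scramble shRNA. In LCN2 and LAMP3, GSK126 and knockdown were no higher than vehicle.

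Of the interferon-responsive genes, APOL6, an apolipoprotein L gene, stood at 1.78 FPKM with astemizole, 0.288 with GSK126 and 0.459 with knockdown, against 0.420 with vehicle and 0.492 with scramble shRNA. PSMB9, an immunoproteasome subunit, stood at 1.34 FPKM with astemizole, 0.571 with GSK126 and 0.415 with knockdown, against 0.20 with vehicle and 0.129 with scramble shRNA. TAP1, the peptide transporter gene that shares its promoter region with PSMB9, was already expressed, at 15.9 FPKM with astemizole, 7.65 with GSK126 and 15.0 with knockdown, against 8.70 with vehicle and 7.65 with scramble shRNA. PSMB8, a further immunoproteasome subunit gene, differed little from vehicle with astemizole. It stood at 3.74 FPKM with astemizole, 2.53 with GSK126 and 0.710 with knockdown, against 3.58 with vehicle and 1.44 with scramble shRNA. TAP1 and PSMB8 were looked up after the PSMB9 values were seen. The guanylate-binding protein gene GBP2 stood at 1.31 FPKM with astemizole and 0.483 with GSK126, against 0.352 with vehicle and 0.172 with scramble shRNA. IFIT3, an RNA-binding antiviral effector, passed the rule by little, at 1.04 FPKM with astemizole, 0.288 with GSK126 and 0.219 with knockdown, against 0.321 with vehicle and 0.0918 with scramble shRNA. In APOL6 and IFIT3 the GSK126 value lay below vehicle, whereas in PSMB9 and GBP2 it lay above both controls.

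The remaining members of this group were SERPINA3, described with GSK126 below, and 5 genes between 1.00 and 1.69 FPKM with astemizole. CD4, the co-receptor of helper T cells, was the highest of these 5, at 1.69 FPKM with astemizole, 0.726 with GSK126 and 0.142 with knockdown, against 0.214 with vehicle and 0.355 with scramble shRNA. PTPRC, which defines blood cells, was listed at 0 with astemizole, and so were CD3E and HBB, while the macrophage marker CD68 stood at 3.12 FPKM with astemizole, against 2.55 with vehicle. The blood marker LYZ stood at 0.262 FPKM with astemizole and 7.57 with GSK126, against 1.03 with vehicle and 0 with scramble shRNA. Of 14 blood cell genes 4 were compared. At 2-fold, CD4, whose direction the rule fixed, was higher with astemizole and CORO1A lower (log2 ratio -1.19), beside 3.39% and 5.44% of all names. The median of the 4 genes was -0.24 over vehicle and 0.33 over scramble shRNA, so its direction turned with the control. The other defence genes were the secreted adenosine deaminase CECR1 at 1.39, the eosinophil chemokine CCL26 at 1.36, the scavenger receptor SCARF1 at 1.24 and lactoperoxidase LPO at 1.00 FPKM with astemizole. In bulk RNA, a few cells with much of a transcript and many cells with little of it cannot be told apart.

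The promoters of LCN2 and IFIT3 are shown because these genes stand for the defence group at its highest level and near the threshold. Each window runs from 250 bases before to 50 after a transcript start in RefSeq (GRCh38.p14), a later build than the authors' hg19. Capitals mark a match to the AP-1 pattern TGANTCA, in which N is any base, in LCN2 (chr9:128149203-128149502, strand +). In 1 of the 2 windows listed for IFIT3 (chr10:89327747-89328046, strand +) they mark 2 matches to the interferon-stimulated response element, read on the opposite strand. The other IFIT3 window, not shown, also holds a match.
LCN2: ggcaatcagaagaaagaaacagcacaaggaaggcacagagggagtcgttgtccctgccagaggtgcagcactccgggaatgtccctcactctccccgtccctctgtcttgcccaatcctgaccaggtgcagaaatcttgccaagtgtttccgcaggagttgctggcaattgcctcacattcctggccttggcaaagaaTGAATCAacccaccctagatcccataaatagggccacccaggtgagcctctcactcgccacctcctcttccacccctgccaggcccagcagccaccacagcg
IFIT3: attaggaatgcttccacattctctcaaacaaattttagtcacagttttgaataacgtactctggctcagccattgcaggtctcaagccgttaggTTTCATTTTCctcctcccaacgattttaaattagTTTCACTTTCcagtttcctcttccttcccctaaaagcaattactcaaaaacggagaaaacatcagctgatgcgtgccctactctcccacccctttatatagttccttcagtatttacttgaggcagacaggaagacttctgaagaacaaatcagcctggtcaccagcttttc
Counted from the transcript start, the AP-1 match begins at -52 in LCN2, and the interferon element matches begin at -156 and -122 in IFIT3. The usual AP-1 site has G or C at N, and the LCN2 match, TGAATCA, has A there. A match of letters is a description and shows no binding.

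Epithelial and secreted products made up 10 of the 64 genes, AGT among them, between 1.01 and 2.86 FPKM with astemizole. SPRR1A, a precursor of the cornified envelope of skin, stood at 2.86 FPKM with astemizole, 0.300 with GSK126 and 0.0968 with knockdown, and was listed at 0 with vehicle and with scramble shRNA. About 17 fragments lie behind the astemizole value if the annotated SPRR1A length of 270 bases is used. A longer transcript model would give more. Its neighbour in the family, SPRR1B, was listed at 0 in every column. The trypsinogen gene PRSS3 stood at 2.63 FPKM with astemizole, 0.0717 with GSK126 and 0.0389 with knockdown, and at 0 in both controls. PRSS3P2, a trypsinogen pseudogene, stood at 2.53 FPKM with astemizole and was listed at 0 in the other 4 columns. Both share near-identical sequence with the cationic trypsinogen gene PRSS1, which stood at 30.8 FPKM with astemizole, 0.678 with GSK126 and 0.311 with knockdown, against 1.77 with vehicle and 1.04 with scramble shRNA. Reads of these copies can be divided between them in counting, so the separate values of PRSS3 and PRSS3P2 are uncertain.

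KRT75, a hair follicle keratin, stood at 1.85 FPKM with astemizole, 0.0797 with GSK126 and 0.0494 with knockdown, against 0.0210 with vehicle and 0 with scramble shRNA. TRIM29, a tripartite motif gene of stratified epithelia, stood at 2.25 FPKM with astemizole, 0.391 with GSK126 and 0.193 with knockdown, against 0.196 with vehicle and 0.194 with scramble shRNA. Both lay at least 5 times above every other column. The secreted matrix protein gene TINAGL1 stood at 2.10 FPKM with astemizole, 0.939 with GSK126 and 0.0787 with knockdown, against 0.445 with vehicle and 0.255 with scramble shRNA. Matrilin-2 (MATN2) at 1.40 FPKM, CERCAM at 1.05 and the basement membrane protein gene FRAS1 at 1.01 were lower with astemizole. In CERCAM and FRAS1 the GSK126 values, 0.866 and 0.714 FPKM, came close to those with astemizole.

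SPRR1A and PRSS3 are shown because, with LCN2, they are 3 genes at 2.63 FPKM or more with astemizole whose single listed promoter window holds a match to the AP-1 pattern, in capitals (SPRR1A at chr1:152983831-152984130, strand +; PRSS3 at chr9:33795311-33795610, strand +; GRCh38.p14).
SPRR1A: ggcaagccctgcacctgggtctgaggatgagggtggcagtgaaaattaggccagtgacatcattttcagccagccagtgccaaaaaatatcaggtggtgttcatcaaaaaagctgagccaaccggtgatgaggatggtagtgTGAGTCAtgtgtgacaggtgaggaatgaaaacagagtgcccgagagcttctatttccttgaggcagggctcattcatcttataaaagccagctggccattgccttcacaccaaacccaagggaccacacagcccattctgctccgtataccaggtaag
PRSS3: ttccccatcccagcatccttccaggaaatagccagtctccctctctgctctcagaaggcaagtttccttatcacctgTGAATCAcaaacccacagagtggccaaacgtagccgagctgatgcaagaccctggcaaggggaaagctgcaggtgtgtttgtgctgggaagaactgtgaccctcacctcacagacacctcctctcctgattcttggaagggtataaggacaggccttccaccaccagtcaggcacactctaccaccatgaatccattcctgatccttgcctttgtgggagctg
The match begins at -108 from the SPRR1A start and at -173 from that of PRSS3. The SPRR1A match reads TGAGTCA, a usual AP-1 site. Those of LCN2 and PRSS3 read TGAATCA, which meets only the looser pattern with any base at N.

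Metabolic enzymes numbered 6, led by a pair of aldo-keto reductases that inactivate or interconvert steroids and other carbonyl compounds. AKR1C1, which inactivates progesterone, stood at 2.54 FPKM with astemizole, 0.800 with GSK126 and 0.0960 with knockdown, against 0.210 with vehicle and 0.0302 with scramble shRNA. AKR1C3, which makes testosterone from androstenedione, stood at 1.45 FPKM with astemizole, 0.504 with GSK126 and 0.0760 with knockdown, against 0.204 with vehicle and 0.140 with scramble shRNA. Both had their lowest or next to lowest value in the knockdown column and their second highest with GSK126. AKR1C2, from the same cluster, followed the order of astemizole and GSK126 at lower values, 0.469 and 0.103 FPKM, against 0.0602 with vehicle and 0.0810 with scramble shRNA. These 3 genes are close paralogs, and reads can be divided between them in counting. The others, at 1.05 to 1.30 FPKM with astemizole, were the arginine decarboxylase-related gene ADC (now AZIN2), the carbonic anhydrase-related gene CA11, the pyrimidine-degrading enzyme gene UPB1 and dimethylglycine dehydrogenase DMGDH. DMGDH stood at 1.05 FPKM with astemizole, 0.118 with GSK126 and 0.0511 with knockdown, against 0.117 with vehicle and 0.0950 with scramble shRNA. CA11 had 1.30 FPKM with astemizole and 0.962 with GSK126, against 0.478 with vehicle, and so differed little between the compounds.

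AKR1C1 and AKR1C3 are known targets of NRF2, the activator of antioxidant and detoxifying genes, and a list of 19 such genes written by hand was examined as a whole. Of these, 16 reached 1 FPKM in some column and were compared. With astemizole 8 of the 16 were at least 2-fold above vehicle and 0 below, with a median log2 ratio of 0.99, beside -0.07 and 3.39% higher over all names compared. The 8 include AKR1C1 and AKR1C3, whose direction the rule fixed. The other 6 were led by the ferritin heavy chain FTH1 at 9758 FPKM with astemizole, against 2104 with vehicle (log2 ratio 2.21), the cystine transporter SLC7A11 (1.91) and the ferritin light chain FTL (1.84). Heme oxygenase 1 (HMOX1) stood at 59.5 FPKM with astemizole, against 17.1 with vehicle, while the pentose phosphate enzyme TALDO1 had a log2 ratio of 0.03. For the same list GSK126 over vehicle gave a median of -0.07 and knockdown over scramble shRNA one of 0.04, beside medians of -0.04 and 0.03 over all names. No gene of the 16 was at 2-fold in either comparison, beside 1.03% higher and 0.766% lower of all names with GSK126 and 1.83% and 5.28% with knockdown. AKR1C1 had the highest ratio of the list with GSK126, at 0.57. Ratios were taken only for the 6 of 24 hand-written lists that held a member, the NRF2 list among them.

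**Figure D2:**
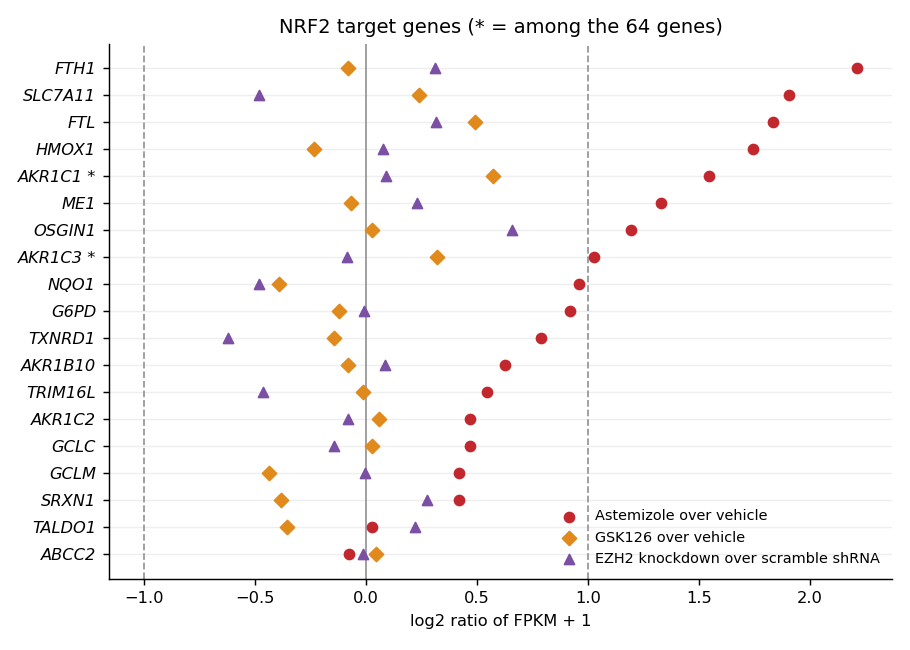
Log2 ratios of FPKM + 1 for 19 NRF2 target genes, ordered by astemizole over vehicle, with dashed lines at 2-fold. The astemizole ratios reach 2.21 for FTH1, while the GSK126 ratios run up to 0.57 and the knockdown ratios up to 0.66.

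Of 27 interferon-stimulated genes that the files list, 13 were compared, and 0 reached 2-fold above vehicle with astemizole, beside 3.39% of all names, a share at which 13 genes would give few or none. OAS3 was lower at a log2 ratio of -1.13, and the median was 0.14, beside 5.44% lower and a median of -0.07 over all names. Against scramble shRNA instead of vehicle that median was 0.45. IFIT2, a relative of IFIT3, stood at 0.864 FPKM with astemizole and 0.263 with GSK126, against 0.205 with vehicle and 0.186 with scramble shRNA, and IRF7 and ISG20 had log2 ratios of 0.68 and 0.70. IFIT1 went the other way, at 0.984 FPKM with astemizole, against 2.16 with vehicle and 0.505 with scramble shRNA. In the innate defence and acute phase list 7 of 27 genes were compared, with 3 higher, 1 lower and a median of 0.00. Besides LCN2 (3.54), whose direction the rule fixed, the higher ones were the calcium-binding proteins S100P at 3.26 and S100A9 at 1.73, and the lower one was the antiprotease SLPI at -3.04. S100A9 reached 1 FPKM with astemizole alone, so the filter admitted it through the column where it was high. Of 28 epidermal genes 4 were compared, with a median of 0.07 over vehicle and 0.64 over scramble shRNA. SPRR1A, the 1 gene of the 4 past 2-fold, is a member whose direction the rule fixed.

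Signalling genes numbered 10. MCTP1, a calcium-binding membrane protein gene, stood at 2.63 FPKM with astemizole, 1.05 with GSK126 and 0.714 with knockdown, against 0.405 with vehicle and 0.220 with scramble shRNA. WNT4, a ligand of reproductive tract development, stood at 2.17 FPKM with astemizole, 0.630 with GSK126 and 0.861 with knockdown, against 0.450 with vehicle and 0.321 with scramble shRNA. In these 2 genes all 3 treated columns lay above both controls. GPR1, a receptor of chemerin, stood at 2.12 FPKM with astemizole, 0.0928 with GSK126 and 0 with knockdown, against 0.145 with vehicle and 0.0177 with scramble shRNA. PTHLH, the parathyroid hormone-related protein gene, stood at 1.19 FPKM with astemizole, 0.104 with GSK126 and 0.156 with knockdown, against 0.310 with vehicle and 0.197 with scramble shRNA. Here the control values were higher than those with GSK126 or knockdown. The ErbB4 ligand NRG4 at 1.43, the phospholipase PLCB2 at 1.48, the kinase FYN at 1.29, the orphan receptor MRGPRE at 1.25 and the calcium-binding protein NECAB2 at 1.16 FPKM with astemizole completed this group with SHISA2.

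The 3 transporter genes were SLC5A1, SLC22A15 and SLC4A10. SLC5A1, the sodium-glucose transporter SGLT1, stood at 2.18 FPKM with astemizole, 1.14 with GSK126 and 0.963 with knockdown, against 0.236 with vehicle and 0.238 with scramble shRNA. SLC22A15, an organic ion transporter, stood at 1.95 FPKM with astemizole, 0.98 with GSK126 and 0.847 with knockdown, against 0.452 with vehicle and 0.469 with scramble shRNA. The bicarbonate transporter SLC4A10 stood at 1.51, 0.786 and 0.616 FPKM with astemizole, GSK126 and knockdown, against 0.434 with vehicle and 0.453 with scramble shRNA. Each ran in the order astemizole, GSK126, knockdown and controls, and in none was astemizole 2 times the highest other column.

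Genes of cilia, the germ line and early lineages numbered 6. In each GSK126 lay above both controls, as it did for 51 of the 64 genes (79.7%), all 6 enzymes and all 3 transporters among them. PIFO, a gene of ciliary disassembly, stood at 2.10 FPKM with astemizole, 0.899 with GSK126 and 0.377 with knockdown, against 0.267 with vehicle and 0.376 with scramble shRNA. The basic helix-loop-helix gene ASCL5 stood at 1.84 FPKM with astemizole, 1.09 with GSK126 and 0.602 with knockdown, against 0.338 with vehicle and 0.407 with scramble shRNA. MOV10L1, a helicase of piRNA production in germ cells, stood at 1.39 FPKM with astemizole, the testis factor DMRT1 at 1.38 and the sperm gene SPATA6 at 1.01. SPATA6 had 0.643 FPKM with GSK126 and 0.445 with vehicle, the smallest log2 ratio of astemizole over vehicle among the 64 genes, 0.47. No member belonged to a list of 89 developmental regulators known to be bound by Polycomb or to a list of 23 genes reported as repressed by EZH2. With 0.719% of silent names passing the rule, and with HOX genes and CDKN2B left out by it, lists of this size would hold few members or none, and nothing is read from the count.

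Among the remaining coding genes, the histone gene HIST1H4I stood at 2.22 FPKM with astemizole, 0.734 with GSK126 and 0.181 with knockdown, against 0.367 with vehicle and 0.335 with scramble shRNA. DUSP27, a muscle phosphatase-like gene now named STYXL2, stood at 2.21 FPKM with astemizole, 0.625 with GSK126 and 0.301 with knockdown, against 0.454 with vehicle and 0.486 with scramble shRNA. The actin-binding protein gene SVIL stood at 2.04 FPKM with astemizole, 0.746 with GSK126 and 0.480 with knockdown, against 0.431 with vehicle and 0.395 with scramble shRNA. All 3 had GSK126 second. TMEM185A was listed at 2.01 FPKM with astemizole and at 0 in the other 4 columns, while its paralog TMEM185B stood at 11.5 FPKM with astemizole and 13.7 with GSK126, against 14.9 with vehicle and 14.1 with scramble shRNA. Since 0 can stand for an estimate that failed, no fold is given for TMEM185A or PRSS3P2. The readthrough name TMEM189-UBE2V1 overlaps its 2 parent genes, and its 1.18 FPKM with astemizole, against 0.279 with vehicle and 0 with scramble shRNA, cannot be told from theirs. TMEM178A, VWA7, C20orf144 and TMEM217 lay between 1.01 and 1.39 FPKM with astemizole.

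Of the 7 noncoding or unplaced names, LOC283070 was the highest, at 4.26 FPKM with astemizole, 0.586 with GSK126 and 0.416 with knockdown, against 0.254 with vehicle and 0.0780 with scramble shRNA. C9orf106, a long noncoding RNA gene now named LINC02913, stood at 2.82 FPKM with astemizole, 0.841 with GSK126 and 0.515 with knockdown, against 0.271 with vehicle and 0.234 with scramble shRNA. DIO3OS, transcribed opposite the deiodinase gene DIO3, stood at 1.10 FPKM with astemizole, 0.0612 with GSK126 and 0.0884 with knockdown, and was listed at 0 in both controls. DIO3 stood at 9.58 FPKM with astemizole, 0.343 with GSK126 and 0.148 with knockdown, against 0.0638 with vehicle and 0.0182 with scramble shRNA. The pair was thus high in the same library, and because a strand setting of the counting was not given in the sources used here, reads of the 2 cannot be told apart where they overlap. FLJ31104, FLJ35024, DGCR5 and LOC100506394 lay between 1.37 and 1.66 FPKM with astemizole.

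GSK126, which the rule did not use, showed how far inhibition of the catalytic site was accompanied by the same transcripts. Of the 64 genes 6 (9.38%) stood at 1 FPKM or more with GSK126, against 35 of the other 8835 silent names (0.396%), and 0.461% over both. Among the 201 silent names at 0.5 to 1 FPKM with astemizole, which are closer in level to the 64, it was 7 (3.48%). GSK126 lay above both controls for 51 of the 64 genes (79.7%), beside 69.2% of those 201 names and 36.2% of all names compared. The rule kept the controls low, so this direction is in part set by the choice. On the log2 (FPKM + 1) scale the median of GSK126 over vehicle was 0.28 for the 64 genes and -0.04 for all names, and AGT, SHISA2 and SERPINA3 passed 2-fold upwards, beside 1.03% of all names. The share of all names past 2-fold downwards was 0.766%, but with controls under 0.5 FPKM no member could reach it on this scale. Both comparisons of a compound share the vehicle column. With scramble shRNA as the control the median was 0.30 and 3 genes again passed 2-fold upwards, beside 1.42% of all names (0.346% downwards, again out of reach for the members). Rescaling to TPM, which sets each column to the same sum, moved the GSK126 over vehicle median of all names by 0.19 and that of the 64 genes to 0.42. After that rescaling 22 of the 64 genes reached a value of 1 with GSK126, and 11 did after rescaling each column to the vehicle sum; with a pseudocount of 0.1 FPKM 21 genes passed 2-fold upwards over vehicle, beside 2.65% of all names.

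The 6 genes at 1 FPKM or more with GSK126 were AGT, SHISA2, SERPINA3, SLC5A1, ASCL5 and MCTP1. AGT, which encodes the hormone precursor angiotensinogen, stood at 1.59 FPKM with astemizole, 3.32 with GSK126 and 0.0954 with knockdown, against 0.438 with vehicle and 0.231 with scramble shRNA. SHISA2, an antagonist of FGF and Wnt receptors, stood at 1.27 FPKM with astemizole, 2.40 with GSK126 and 0.50 with knockdown, against 0.461 with vehicle and 0.497 with scramble shRNA. These were the 2 genes in which GSK126 exceeded astemizole. SERPINA3, the acute phase protein antichymotrypsin, stood at 1.91 FPKM with astemizole, 1.90 with GSK126 and 0.0381 with knockdown, against 0.306 with vehicle and 0.0771 with scramble shRNA. AGT and SERPINA3 are secreted by liver cells, whose 9 markers summed to 184 FPKM with GSK126, against 21.7 with vehicle, and the part of this signal in their GSK126 values was not tested. Of 25 liver genes, 19 were compared, and GSK126 passed 2-fold above vehicle in 16, with a median log2 ratio of 1.96, beside 1.03% of all names. Most of the 19 reached 1 FPKM with GSK126 alone, so the filter admitted them through the column where they were high, and the count is a description. With astemizole 5 of the 19 were lower than vehicle and 0 higher, beside 5.44% and 3.39% of all names. The median was -0.41 over vehicle and 0.0085 over scramble shRNA, so its direction turned with the control. ALB, which encodes albumin, was at 0.133 FPKM with astemizole.

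**Figure D3:**
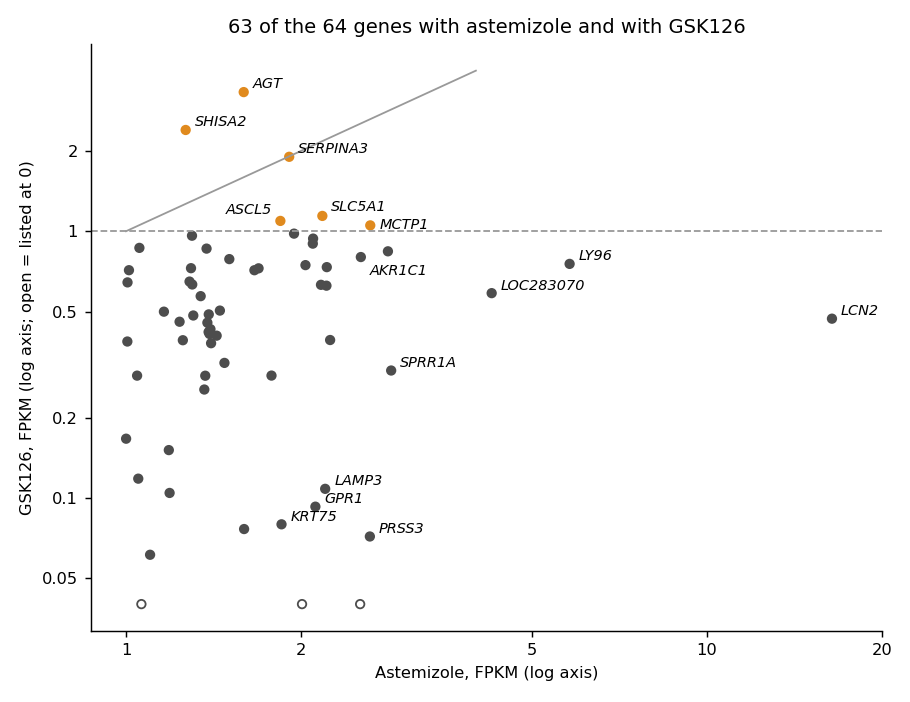
FPKM with GSK126 against FPKM with astemizole for 63 of the 64 genes on log axes, with the line of equal values, a dashed line at 1 FPKM with GSK126 and open circles for genes listed at 0 with GSK126. AGT and SHISA2 lie above the line of equal values, and LCN2 and LY96 lie farthest to the right, with 0.470 and 0.754 FPKM with GSK126.

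Astemizole over GSK126 put 16 of the 64 genes past 2-fold upwards and 0 downwards, and the median log2 ratio was 0.77, beside 2.06% and 3.34% and a median of -0.05 over all names; the rule had used the astemizole column. In the knockdown column 36 of the 64 genes lay above scramble shRNA and 25 below, with a median log2 ratio of 0.04, beside 0.03 over all names. Of all names 1.83% were at least 2-fold higher and 5.28% lower there, but the thresholds left no room for a member to reach 2-fold in either direction on this scale, and nothing is read from that. The highest ratio of knockdown over scramble shRNA was 0.67, for SLC5A1, and the lowest -0.28, for ADC. The knockdown value lay between 0.5 and 1 FPKM for 13 genes, SLC5A1, FLJ31104, WNT4 and SLC22A15 highest among them.

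The same thresholds were turned to each column in place of astemizole, with the other treated columns under 1 FPKM and the controls under 0.5 FPKM. With astemizole 58 names passed once GSK126 had also to be under 1 FPKM. With GSK126 35 names passed, 7 of them from the liver list, and with knockdown 19. Vehicle alone gave 23 names and scramble shRNA 2. Names of this kind thus also arose in the control columns. A treated column faced the 0.5 FPKM limit in both controls and a control column only in the other control, so these counts are not on equal terms. With all other columns under 0.5 FPKM, 31 names passed with astemizole, 24 with GSK126 and 7 with knockdown, against 7 with vehicle and 1 with scramble shRNA. Under the first thresholds, the median level of the names was 1.42 FPKM with astemizole, 1.20 with GSK126 and 1.32 with knockdown. It was 1.20 with vehicle and 1.83 for the 2 names with scramble shRNA.

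**Figure D4:**
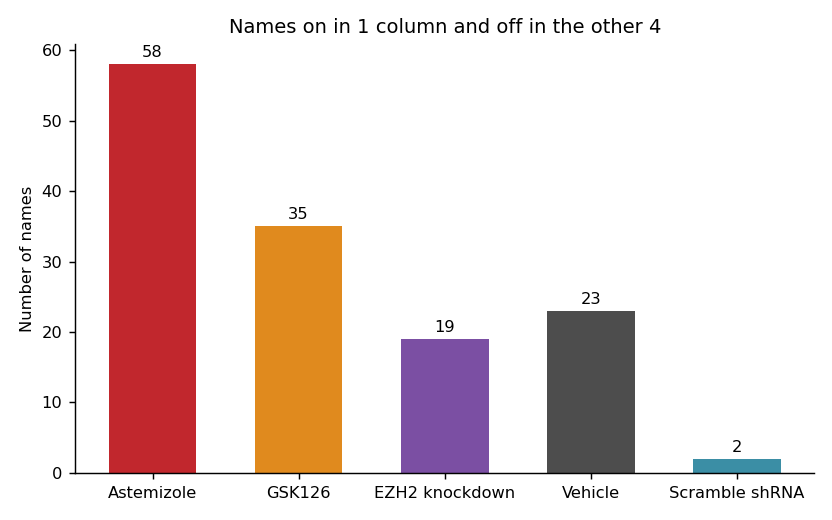
Number of names at 1 FPKM or more in 1 column, with the other treated columns under 1 FPKM and the control columns under 0.5 FPKM. Astemizole gave 58 names and GSK126 35, and the vehicle and scramble shRNA columns gave 23 and 2. A control column faced the 0.5 FPKM limit only in the other control, so treated and control bars are not on equal terms.

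At the thresholds, genes just inside and just outside differed little. The members nearest above 1 FPKM with astemizole were LPO, TMEM217, SPATA6, FRAS1 and IFIT3, from 1.00 to 1.04 FPKM, and names near below it were NPY4R, ALDH1L1, RNASE7 and the viral RNA sensor TLR3, between 0.976 and 0.998 FPKM. With vehicle, LCN2 (0.492 FPKM), NRG4 and CA11 were nearest below 0.5 FPKM, while TMEM154, COL16A1 and LOC402160 were just above at 0.503 to 0.522. With scramble shRNA, SHISA2, APOL6 and DUSP27 were just below at 0.486 to 0.497 FPKM, and ELFN2, APBA1 and SP140L just above at 0.502 to 0.523. In the knockdown, SLC5A1, FLJ31104 and WNT4 lay below 1 FPKM at 0.861 to 0.963, and HCN2, SERPINB8 and HSPB8 above it at 1.06 to 1.17.

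Promoter sequence and position were not used by the rule. Of the 64 genes 40 had at least 1 promoter window in the RefSeq table, 54 windows in all, since 10 genes had several starts. The CpG ratio, observed over expected from the base composition, had a median of 0.479 in these windows, 0.377 in the 7092 windows of the other silent names and 0.832 in the 12641 windows of names at 1 FPKM or more in every column. A ratio of 0.6 or more, a common mark of CpG islands, was met by 24 of the 54 windows (44.4%), against 34.7% for the other silent names and 79.5% for the names expressed throughout. CpG-rich promoters are those that Polycomb complexes usually occupy. The 2 kinds are shown with every CG in capitals: AKR1C1 with 3 (chr10:4963165-4963464, strand +) and MOV10L1 with 44 (chr22:50089756-50090055, strand +), both GRCh38.p14.
AKR1C1: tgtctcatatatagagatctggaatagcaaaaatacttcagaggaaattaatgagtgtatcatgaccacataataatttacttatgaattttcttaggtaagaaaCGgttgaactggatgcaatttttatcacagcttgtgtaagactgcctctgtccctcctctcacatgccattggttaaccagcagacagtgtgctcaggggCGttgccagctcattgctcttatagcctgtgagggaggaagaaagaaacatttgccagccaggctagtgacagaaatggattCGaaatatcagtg
MOV10L1: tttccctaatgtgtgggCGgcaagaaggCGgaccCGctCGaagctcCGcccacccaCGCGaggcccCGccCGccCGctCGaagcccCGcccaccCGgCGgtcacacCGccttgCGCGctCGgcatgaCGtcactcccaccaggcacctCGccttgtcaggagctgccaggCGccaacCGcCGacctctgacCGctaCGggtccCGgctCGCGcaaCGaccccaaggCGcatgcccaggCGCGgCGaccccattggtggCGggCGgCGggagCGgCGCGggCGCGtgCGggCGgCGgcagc
LCN2, SPRR1A and PRSS3, printed above, resemble AKR1C1 with ratios of 0.255, 0.159 and 0.0967, and MOV10L1 has 1.05. WNT4, SVIL, FYN and SHISA2 also have windows above 0.8.

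**Figure D5:**
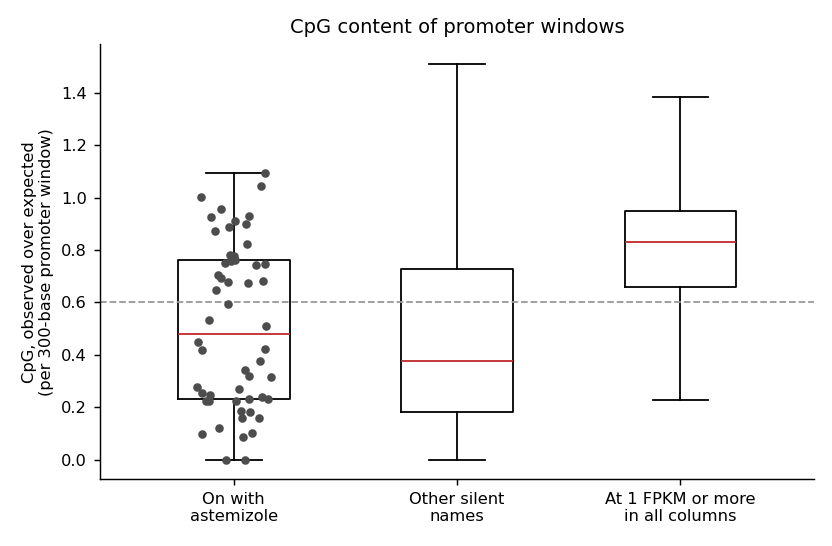
CpG observed over expected in promoter windows of the genes present with astemizole, of the other silent names and of names at 1 FPKM or more in all columns. Boxes give quartiles and the median (red line), whiskers reach 1.5 times the interquartile range, points are the 54 windows of the first set, and the dashed line is at 0.6; the medians are 0.479, 0.377 and 0.832.

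Motifs were sought on both strands in the 54 windows and set beside the share of all 35116 windows. The AP-1 pattern TGANTCA, in which N is any base, was in 8 windows (14.8%) of 7 genes, ASCL5, LCN2, MCTP1, PRSS3, SPRR1A, SVIL and VWA7, beside 7.71% of all windows and 8.78% of those of the other silent names. Its matches were not split by the base at N, so these shares belong to the looser pattern and not to usual AP-1 sites alone. The ATF4 composite core TGATGNAA was in 4 windows (7.41%, all windows 3.62%), the TATA box TATAAA in 7 (13.0%, all 11.5%) and the heat shock core GAANNTTC in 4 (7.41%, all 6.77%). The aryl hydrocarbon receptor core GCGTG was in 20 (37.0%, all 36.5%), the GC box CCCGCCC in 17 (31.5%, all 33.1%) and the E-box CACGTG in 1 (1.85%, all 7.26%). The cyclic AMP element TGACGTCA was in 1 window (1.85%, all 1.85%). The NF-kB element and the lysosomal gene element, which contains the E-box, were in 0 windows, beside 0.558% and 0.353% of all. The NF-kB element was sought as a strict pattern, and near matches were not counted. The LCN2 window, printed above, holds a stretch that differs from that pattern in 1 letter. The count of 0 therefore does not show that LCN2 or the other defence genes lack NF-kB sites. The antioxidant element TGACNNNGC, added after the genes were seen, was in 7 windows (13.0%, all 13.3%) but in none of AKR1C1 or AKR1C3, and the interferon element, added likewise, in 2 (3.70%, all 3.57%), both of IFIT3. With 54 windows, differences of a few windows carry little weight.

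By chromosome, 59 of the 64 genes could be placed. Chromosome 22 held 6 of them (10.2%), CECR1, DGCR5, SLC5A1, APOL6, UPB1 and MOV10L1, beside 1.90% of the 7962 placed silent names. Chromosome 1 held 10 (16.9%, silent names 10.1%) and chromosome 19 held 1 (1.69%, silent names 6.57%). AKR1C1 and AKR1C3 lie in 1 cluster on chromosome 10.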

How the data were processed

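The deposited table holds FPKM for 6 libraries in 5 columns, made by the authors with TopHat2 and Cuffdiff on hg19, per the submitters' processing notes, which name no versions. The annotation, the normalization options and how the 2 shRNA libraries became 1 column were not given in the sources used here. Names left out by form or name numbered 7062, of which 27 had turned into dates. Ratios are log2 of FPKM plus a pseudocount of 1, over names that reached 1 FPKM in any column. With 1 value per condition no test was made. Fragments were estimated from low FPKM values and GENCODE 29 transcript lengths. Symbols, promoters and chromosomes came from RefSeq tables (60 of 64 names matched), without coordinates beyond promoter windows. Named were the 30 highest genes with a symbol, genes at 1 FPKM or more with GSK126, members of the hand-written lists (NRF2, interferon, innate defence, epidermal, liver and blood) and genes nearest each threshold, with up to 3 other genes per list; further ones, such as TAP1, DIO3, TMEM185B, HMOX1, TALDO1, IFIT1 and IFIT2, and the functional groups were chosen after values were seen. The genes, lists and rule were chosen with earlier results of these data known. Of 24 hand-written lists, 6 held a member and were compared, while 18 held none and no ratios were taken for them. The values of 1 of the 64 genes and of a gene near a threshold are not reported here. Steps were tested on simulated data. Python 3.11.15, pandas 2.3.3 and matplotlib 3.10.9 were used.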

Additional observations from a re-analysis of the deposited data

How the results depend on the processing

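The 64 genes became 23 with both controls under 0.25 FPKM and 21 at 2 FPKM or more with astemizole, all of them among the 64; 75 under TPM scaling (38 of the 64 among them), 57 with columns rescaled to the vehicle sum (52 among them), 51 with the knockdown under 0.5 FPKM and 94 with scramble shRNA as the only control. The last 3 were added after seeing the data. The 6 genes at 1 FPKM or more with GSK126 became 22 under TPM scaling, which lifts every GSK126 value 1.46-fold by construction, 11 after rescaling to the vehicle sum and 4 without the liver list and SERPINA3. The 3 genes at least 2-fold higher with GSK126 became 21 with a pseudocount of 0.1 FPKM and 5 under TPM scaling, and the median of 0.28 became 0.73 with that pseudocount. Beside these, 2.65% and 2.11% of all names were higher. List medians of astemizole over the control, with scramble shRNA in place of vehicle, were 0.45 for interferon, 0.0023 for innate defence, 0.64 for epidermal, 0.0085 for liver (main -0.41, reversed) and 0.33 for blood genes (main -0.24, reversed); the cause was not tested, and liver markers were higher in vehicle than in scramble shRNA. With a pseudocount of 0.1 FPKM and no filter the epidermal and blood medians were 0 and the liver median -1.12, and under TPM scaling the epidermal median was 0.11. The NRF2 median stayed between 0.99 and 1.35. No paired analysis was possible because each condition has 1 column and no test was made. Depth limits genes with short transcripts, such as SPRR1A at about 17 fragments by its annotated length of 270 bases.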
